A study of Mus musculus with 11 samples.

Results

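Cadherins and protocadherins, the calcium-dependent adhesion proteins that neurons carry at their surface, were followed in the hippocampus of mice lacking the non-coding 1b interval of Scn1a, the gene of the sodium channel subunit Nav1.1. Genes were taken by symbol, as every numbered cadherin (Cdh and a number) and every protocadherin (Pcdh) of the deposited tables. There were 94 such genes in each table, of 24391 in the heterozygous one and 24015 in the homozygous one. Of these, 86 in the heterozygous table and 88 in the homozygous one reached 1 CPM (read counts scaled to a common library size) in at least 1 library and were tested, among 14630 and 14838 genes in all, and 86 were tested in both.

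The libraries came from C57BL/6N mice at postnatal day 32, an age the labels call adult, and were sequenced in 2 rounds. In the heterozygous round, 4 mice with the deletion on 1 chromosome (1b+/-, 3 male and 1 female) stood against 3 wild-type (WT) males, with paired-end reads. In the homozygous round, 2 mice with the deletion on both chromosomes (1b-/-, 1 male and 1 female) stood against 2 WT females, with single-end reads. The deletion was made with Cas9 in the germline, so every cell carried it, and nothing else was given to the mice. The rounds share no animal. Within a round the groups differ in their mix of sexes, and between rounds read type cannot be told apart from the rest of what differed.

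Classical cadherins bind the same cadherin on a facing cell, and their cytoplasmic tails hold catenins, which join the membrane to actin. Non-clustered protocadherins, among them the delta1 group (Pcdh1, Pcdh7, Pcdh9 and Pcdh11x) and the delta2 group (Pcdh8, Pcdh10, Pcdh17, Pcdh18 and Pcdh19), adhere more weakly and are known for their patchy expression across brain regions and cell layers. Clustered protocadherins are made from the alpha, beta and gamma arrays, in which each variable exon has its own promoter, so that single neurons express different combinations and tell their own branches from those of other cells. PCDH19 is a gene of human epilepsy.

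Scn1a, the targeted gene, was read at 113 to 171 CPM in WT and 83.3 to 119 CPM in 1b+/- mice, and at 134 and 173 CPM in WT against 26.3 and 16.7 CPM in 1b-/- mice. By edgeR's quasi-likelihood test it did not pass in the heterozygous comparison (log2 fold change -0.47, SE 0.15, adjusted p = 0.303). It passed in the homozygous one (-2.83, SE 0.27, adjusted p = 0.0211). Library totals lay between 20667122 and 36145161 counts, of which cadherins and protocadherins took 0.192% to 0.257%. The WT libraries of the homozygous round stood apart from the other 9. Scaled over all 11 libraries, the 14 genes of a striatal marker list with 1 symbol in both tables summed to 3330 and 8070 CPM in them and to 198 to 419 CPM in the rest, and the 8 genes of a basal forebrain cholinergic list to 58.5 and 127 CPM against 3.86 to 13.5 CPM. Lists for hippocampal neurons were low in the same pair: 7 dentate granule cell genes summed to 71.6 and 113 CPM (221 to 346 CPM elsewhere), 5 CA3 genes to 71.5 and 96.1 CPM (210 to 343 CPM), and 5 CA1 genes to 313 and 343 CPM (525 to 887 CPM). Oligodendrocyte genes (7, 16218 and 22310 CPM against 6170 to 13211 CPM) and GABAergic interneuron genes (6, 1006 and 1162 CPM against 616 to 805 CPM) were high in that pair and 7 meningeal genes low (32.5 and 49.1 CPM against 119.8 to 193 CPM). The 9 choroid plexus genes differed within groups, at 66.1 and 13440 CPM in the 1b-/- mice. In the homozygous comparison, 12 of 15 striatal genes fell, 3 of 7 dentate and 3 of 5 CA3 genes rose, and no marker was at 0 in a whole group. The part of these differences in the homozygous results below was not tested. In bulk tissue, fewer cells of a type and less RNA per cell cannot be told apart.

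Per kilobase of exon, and scaled over all 11 libraries, Pcdh9 had the highest level of the 35 cadherins and non-clustered protocadherins when the WT animals of the heterozygous round were ranked, at 57.0 ± 8.34 CPM per kb (SD, n = 3). Pcdh7 followed at 25.6 ± 1.27 and Pcdh20 at 23.9 ± 2.89 CPM per kb. Among classical cadherins, Cdh11 stood at 22.0 ± 1.29 and Cdh2 (N-cadherin, found at most synapses) at 19.9 ± 0.28 CPM per kb. Pcdh9 lay above Pcdh7 without overlap, but from Pcdh7 down to Pcdh10 (18.2 ± 0.48 CPM per kb) the ranges of all neighbours overlapped, as did 27 of the 34 neighbouring pairs. The rank of Pcdh9 depends on its annotated exon length, 3714 bases against 10645 for Pcdh10. Before division by length, Pcdh9 averaged 212 CPM and Pcdh10 193 CPM in the same mice, with overlap. At the low end were Cdh16 and Cdh17, which are not known as brain cadherins and had at most 4 counts in a library. By summed CPM, non-clustered protocadherins made up the largest class, at 49.3% to 51.7% of the family in the 7 heterozygous-round mice and 39.0% to 46.4% in the 4 mice of the homozygous round. Clustered ones made up 23.9% to 25.5% and 26.6% to 29.4%, and classical cadherins 21.5% to 23.8% and 23.1% to 26.4%. The alpha and gamma arrays share their last exons between variants, so how reads were divided among them is uncertain: Pcdha7 had at most 3 counts in a library of the heterozygous round and up to 112 in the homozygous round.

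Promoter sequences are shown for 4 non-clustered protocadherins. In the homozygous comparison Pcdh20 and Pcdh8 rose, while Pcdh19 (higher in value) and Pcdh10 (lower in value) lay just past the threshold. The other members called there, Pcdh1, Pcdh11x and Cdh7, are not shown. Each sequence is the 120 bases before the annotated start, 5′ to 3′ on the gene's strand, from RefSeq on GRCm38.p6. Capitals mark matches, on either strand, to TATAAA, the letters of a TATA box, to the CCAAT box, to GGGCGG, the letters of a GC box, or to TGACGT, the core of a cyclic AMP response element.
Pcdh20: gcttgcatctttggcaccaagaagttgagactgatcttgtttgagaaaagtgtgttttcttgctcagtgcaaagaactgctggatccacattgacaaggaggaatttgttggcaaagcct
Pcdh8: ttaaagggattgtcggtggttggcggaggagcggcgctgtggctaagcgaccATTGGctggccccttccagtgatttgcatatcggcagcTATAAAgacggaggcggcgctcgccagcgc
Pcdh19: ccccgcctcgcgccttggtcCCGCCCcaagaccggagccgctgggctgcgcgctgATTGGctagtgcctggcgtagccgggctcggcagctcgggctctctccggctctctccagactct
Pcdh10: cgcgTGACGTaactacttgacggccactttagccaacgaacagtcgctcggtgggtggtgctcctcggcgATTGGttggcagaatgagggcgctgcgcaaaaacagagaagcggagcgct
The windows are chr14:88471397-88471516, minus strand, for Pcdh20, chr14:79771313-79771432, minus strand, for Pcdh8, chrX:133688994-133689113, minus strand, for Pcdh19 and chr3:45378278-45378397, plus strand, for Pcdh10.

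The windows differ in make-up. Pcdh8 holds TATAAA from base -30 and CCAAT, on the reverse strand, from base -68, counted back from the start. Pcdh19, of 72.5% G and C, holds GGGCGG from base -100 and CCAAT from base -65, both on the reverse strand. Pcdh10 holds TGACGT from base -116 and CCAAT, on the reverse strand, from base -50. Pcdh20, of 43.3% G and C, holds none of the 4. The motifs did not overlap each other in these windows. Of 32851 RefSeq windows of this length, the TATA box is held by 6.34%, the CCAAT box by 21.3%, the GC box by 26.5% and the response element core by 4.55%. From the family's own windows, and not from that background, genes on chromosome 18 were left out. That chromosome holds the clustered arrays, Pcdh1 and Cdh2. Of the 25 windows found for 22 of the other genes tested, 2, 13, 5 and 1 hold them, in that order. The windows are not independent: Cdh7 and Pcdh9 have more than 1 each, and the 2 of Pcdh9 overlap and share their CCAAT. A match is a run of letters, not a measured site.

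In the heterozygous comparison, no cadherin or protocadherin passed an adjusted p of 0.05 by the quasi-likelihood test of edgeR (p-values adjusted after Benjamini and Hochberg), as was true of all genes (0% called). Lower values in 1b+/- mice were led by Cdh4 (R-cadherin), Cdh22, Cdh13 (T-cadherin, held to the membrane by a lipid anchor) and Pcdh11x. At an unadjusted p under 0.05, 17 of the 86 members stood out (19.8%, 9 lower and 8 higher), against 11.3% of all genes. The likelihood ratio test called 5 members and DESeq2 called 6, each of them lower, against 1.31% and 1.67% of all genes. The values of WT and 1b+/- mice did not overlap for 14 members (16.3%), against 10.9% of all genes. The plot of changes by class shows how narrow the spread was in this comparison.

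**Figure D1:**
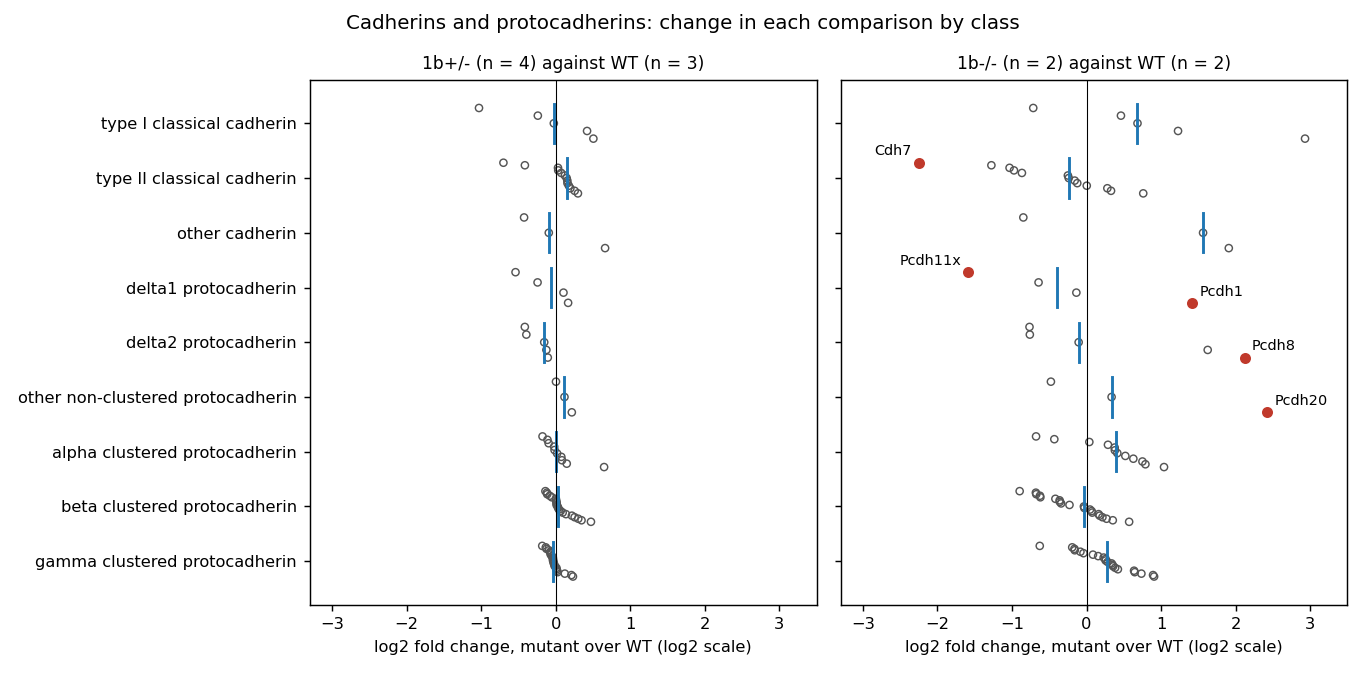
Log2 fold change, mutant over WT, of every member tested (circles), by class, in 1b+/- mice (left) and 1b-/- mice (right). Filled red circles passed an adjusted p of 0.05 and blue bars are class medians. No member passed in 1b+/- mice, and 5 passed in 1b-/- mice, with 3 higher and 2 lower.

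Cdh4 was read at 27.4, 42.2 and 39.3 CPM in WT and at 17, 18.4, 17.3 and 18.3 CPM in 1b+/- mice. All 4 mutant values lay below the WT ones, a log2 fold change of -1.03 (SE 0.13, adjusted p = 0.0532). No gene had a smaller adjusted p, and others shared it. Cdh13 was read at 59.0, 63.3 and 72.8 CPM against 47.7, 51.9, 48.6 and 45.5 CPM. The groups did not overlap, and the log2 fold change was -0.42 (SE 0.07, adjusted p = 0.0777). Cdh22, a cadherin of restricted forebrain domains, was read at 22.0, 34.8 and 27.6 CPM against 16.8, 16.5, 17.1 and 18.6 CPM. Its groups did not overlap either, with a log2 fold change of -0.70 (SE 0.13, adjusted p = 0.0978).

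Among non-clustered protocadherins, 7 of 12 had negative values, all 5 delta2 genes among them, with a median log2 fold change of -0.12 against 0.00 over all genes. Pcdh11x, an X-linked delta1 gene, was read at 28, 28.9 and 33.5 CPM in WT and 19.5, 21.4, 17.4 and 24.5 CPM in 1b+/- mice, without overlap (log2 fold change -0.54, SE 0.11, adjusted p = 0.134). Pcdh8 was read at 67.6, 87.9 and 88.2 CPM against 65.3, 66.5, 59.5 and 55.9 CPM, again without overlap (-0.39, SE 0.10, adjusted p = 0.197). Pcdh10 differed less, at 184 to 194 CPM against 169 to 178 CPM (-0.13, SE 0.04, adjusted p = 0.265). Pcdh19 overlapped, at 128 to 161 CPM in WT and 127 to 137 CPM in 1b+/- mice, and Pcdh20 had the same mean in both groups, 122 CPM. Pcdh9, the highest member, stood at 206 ± 30.2 and 231 ± 12.8 CPM and also overlapped. Pcdh15, known from hair cells, stood at 20.0 to 23.0 CPM against 24.0 to 26.4 CPM (0.22, SE 0.07, adjusted p = 0.274).

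Type II classical cadherins leaned the other way, with 11 of 13 values positive and a median of 0.15. Cdh11 was read at 84.4 to 94.7 CPM in WT and 97.1 to 109 CPM in 1b+/- mice (0.18, SE 0.06, adjusted p = 0.316). Cdh2, the best measured type I member, did not differ beyond its spread, at 156 ± 2.21 and 154 ± 3.02 CPM. Clustered protocadherins stayed near 0: of 53 tested, 25 had lower and 28 higher values, and their median was 0.00. An unadjusted p under 0.05 was reached by 3 of them (5.66%), against 11.3% of all genes. Pcdhgc5, a gamma C-type variant, stood at 99.0 ± 6.96 and 92.9 ± 5.48 CPM, Pcdhgc3 at 107 ± 4.10 and 102 ± 4.54 CPM, and Pcdhac2 at 38.9 ± 1.94 and 36 ± 1.95 CPM. Pcdhgc4 stood at 15 ± 1.34 and 13.2 ± 1.11 CPM, and the beta gene Pcdhb17 at 13.9 ± 1.37 and 14.2 ± 0.31 CPM. Pcdhb16 stood at 9.14 ± 0.73 against 11.3 ± 0.74 CPM, without overlap (0.30, SE 0.09, adjusted p = 0.266), and Pcdha1 at 1.35 ± 0.13 against 2.10 ± 0.41 CPM.

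These values moved beside others. Striatal genes summed to 242 to 419 CPM in WT and 198 to 242 CPM in 1b+/- mice. Of 13 tested, 12 were lower in value, 7 had an unadjusted p under 0.05 and 0 were called. GABAergic interneuron genes summed to 695 to 805 and 616 to 680 CPM, with 5 of 6 lower in value and 4 under that unadjusted p. Thalamic genes summed to 440 CPM in WT replicate 1 and 326 CPM in 1b+/- replicate 4, with 93.2 to 187 CPM in the other 5 mice. The part of the striatal, interneuron and thalamic lists in the results was not tested. Oligodendrocyte genes (7 of 7, median log2 fold change 0.34), dentate granule genes (7 of 7, 0.24) and CA1 genes (5 of 5, 0.20) were higher in value in 1b+/- mice, 3 of each with an unadjusted p under 0.05. WT replicate 1 also stood apart in its oligodendrocyte sum, at 10202 CPM against 6414 and 6170 CPM in the other WT mice. The part of these lists was not tested either. Without WT replicate 1, 2.89% of all genes were called, with 8 members among them: Cdh4, Cdh13, Cdh22, Pcdh8, Pcdh11x, Pcdh17 and Pcdh19 lower and Pcdh9 higher. Without any other mouse, no member was called.

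In the homozygous comparison, 5 of 88 members were called (5.68%), against 3.58% of all genes. Pcdh20, Pcdh1 and Pcdh8 rose in 1b-/- mice (of all genes 2.06% rose), and Pcdh11x and Cdh7 fell (of all genes 1.52% fell). Of the 5, 4 are among the 12 non-clustered protocadherins, 1 is among the 18 classical cadherins, and none is among the 55 clustered protocadherins. At an unadjusted p under 0.05 there were 27 members (30.7%, 15 lower and 12 higher), against 26.4% of all genes, so at that threshold the family was near the background. The values of WT and 1b-/- mice did not overlap for 58 members (65.9%), which is also near the 59.7% of all genes.

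Pcdh20, a non-clustered protocadherin outside the delta groups, was read at 14.1 and 20.8 CPM in WT and at 92.1 and 95.2 CPM in 1b-/- mice. Both mutant values lay far above the WT ones, a 5.37-fold rise (log2 fold change 2.42, SE 0.21, adjusted p = 0.0207). Pcdh8, which takes other adhesion proteins into the cell after neuronal activity, was read at 17 and 22.5 CPM against 66.3 and 106 CPM, a 4.35-fold rise (2.12, SE 0.28, adjusted p = 0.0307). Its mutant values were farther apart than its WT ones. Pcdh1, a delta1 gene, was read at 89.6 and 102 CPM against 229 and 281 CPM, a 2.67-fold rise (1.42, SE 0.16, adjusted p = 0.0251).

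Pcdh11x was read at 21.3 and 21.8 CPM in WT and at 8.26 and 6.08 CPM in 1b-/- mice. It fell by 1.59 on the log2 scale (SE 0.21, adjusted p = 0.0307), and both mutant values lay below all other libraries of the study. Cdh7, a type II classical cadherin, was read at 15 CPM in both WT mice and at 4.26 and 2.07 CPM in 1b-/- mice, 653 counts against 216 in all. It fell by 2.24 on the log2 scale (SE 0.37, adjusted p = 0.0469).

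Several members lay just past the threshold. Pcdh10 was read at 209 and 205 CPM in WT and 132 and 113 CPM in 1b-/- mice (-0.76, SE 0.13, adjusted p = 0.0504). Pcdh19 was read at 13.4 and 26.4 CPM against 58.6 and 64.1 CPM (1.63, SE 0.33, adjusted p = 0.0633). Cdh4 was read at 26.5 and 27.7 CPM against 16.1 and 16.9 CPM (-0.71, SE 0.14, adjusted p = 0.0633). Cdh13 was read at 115 and 88.8 CPM against 60.8 and 52.5 CPM (-0.85, SE 0.17, adjusted p = 0.0651). Cdh19, a type II classical cadherin, was read at 11.1 and 14.0 CPM against 4.32 and 6.05 CPM (-1.28, SE 0.26, adjusted p = 0.0633). Pcdh10, Cdh4, Cdh13 and Cdh19 were lower in value in both 1b-/- mice, and Pcdh19 was higher. Cdh2 stood at 94.3 ± 16.6 and 130 ± 20.6 CPM (0.46, SE 0.18, adjusted p = 0.191), and Cdh11 at 75.0 ± 14.0 and 94.2 ± 6.62 CPM.

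**Figure D2:**
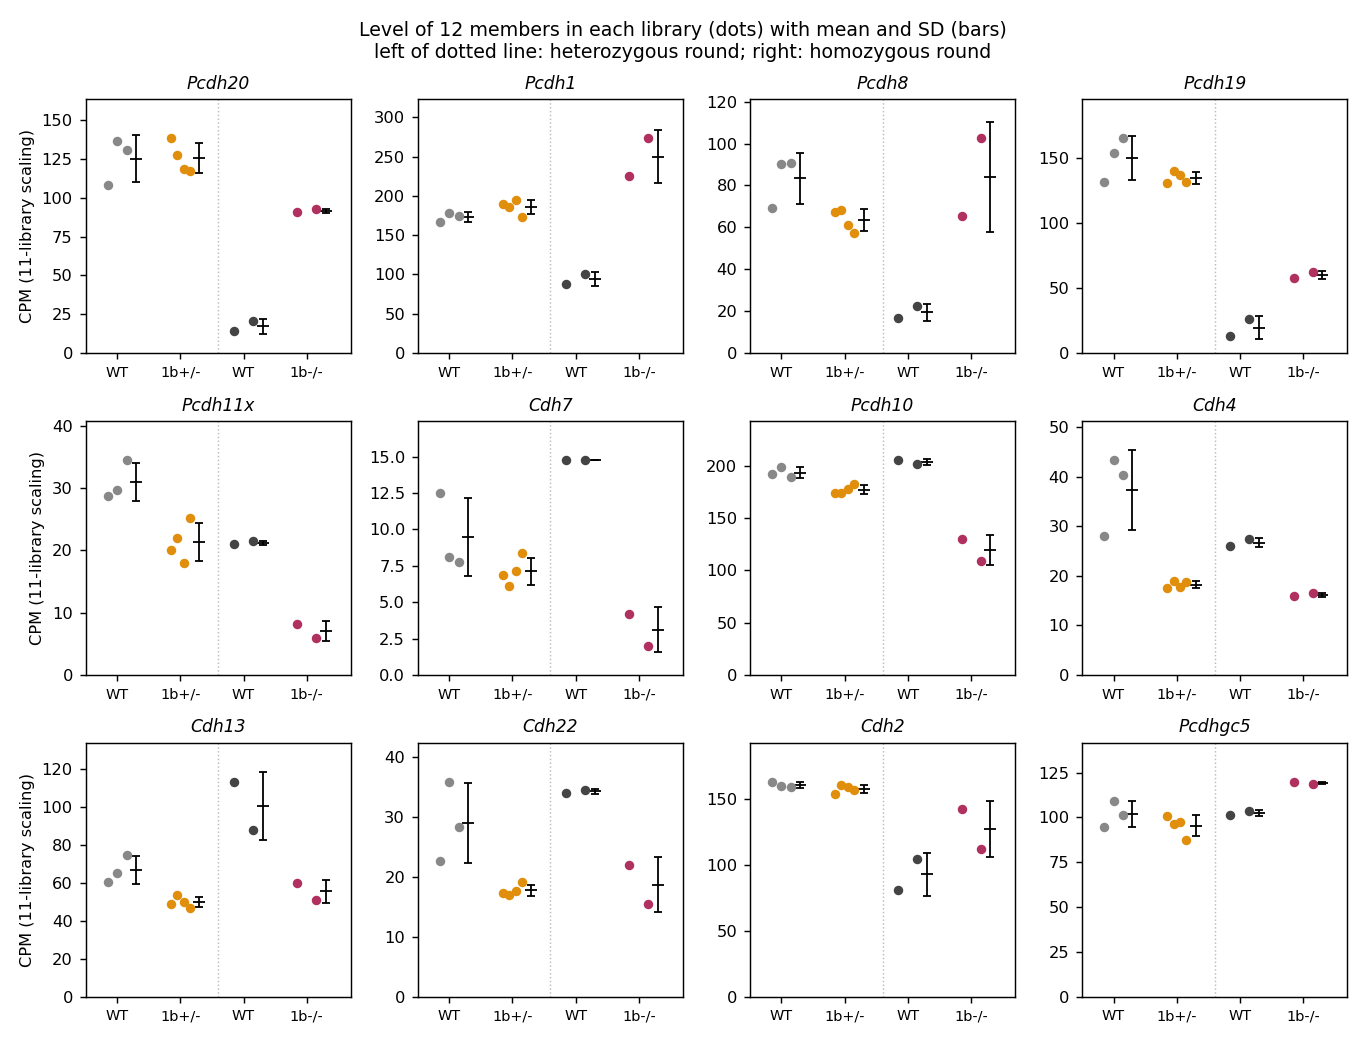
CPM of 12 members, scaled over all 11 libraries, in each mouse (dots), with the mean and SD of each group (bars). For Pcdh20, Pcdh8, Pcdh1 and Pcdh19 the WT libraries of the homozygous round are the lowest of the 4 groups, while Cdh4, Cdh13 and Pcdh11x are lower in the mutants of both rounds.

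The rounds can be set side by side after scaling over all 11 libraries, with no test, since read type differs. Pcdh20 averaged 125 CPM in WT and 125 CPM in 1b+/- mice of the heterozygous round, 17.2 CPM in WT and 91.6 CPM in 1b-/- mice of the homozygous round. Pcdh8 averaged 83.5, 63.5, 19.5 and 83.9 CPM in the same order, and Pcdh19 averaged 150, 135, 19.6 and 60 CPM. For these genes the WT mice of the homozygous round, the pair with high striatal and low dentate granule and CA3 genes, stood lowest. Pcdh11x (31.0, 21.3, 21.2 and 7.02 CPM) and Cdh7 (9.45, 7.12, 14.8 and 3.10 CPM) instead stood lowest in 1b-/- mice. Pcdh8, Pcdh17, Pcdh20 and Pcdh9 lie in this order along chromosome 14 of mm9 (Pcdh8 at chr14:80166587-80171119, Pcdh20 at chr14:88864554-88871203), yet only the pair of Pcdh8 and Pcdh20 was called. Pcdh17 was read at 87.1 and 116 CPM in WT and 94.2 and 94.6 CPM in 1b-/- mice, and Pcdh9 at 157 and 208 against 191 and 140 CPM, with overlap in both.

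None of the 55 clustered protocadherins tested was called in 1b-/- mice by the quasi-likelihood test, against 3.58% of all genes. An unadjusted p under 0.05 was reached by 9 (16.4%), fewer than the 26.4% of all genes. DESeq2 called 1, Pcdhga1, and the likelihood ratio test called none, where these tests called 14.4% and 12.3% of all genes. The fit of all 11 libraries called 14 (5 lower and 9 higher), where it called 37.2% of all genes. Their values leaned upward, with 35 higher and 20 lower and a median of 0.18, against 0.00 over all genes. By array, 10 of 12 alpha and 16 of 22 gamma genes had higher values. Beta genes were near even, with 12 of 21 lower and a median of -0.04. The arrays were not tested against each other. Summed over the gamma array, CPM was 367 and 373 in WT and 425 and 448 in 1b-/- mice. Summed over the beta array, it was 132 and 136 against 112 and 124.

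**Figure D3:**
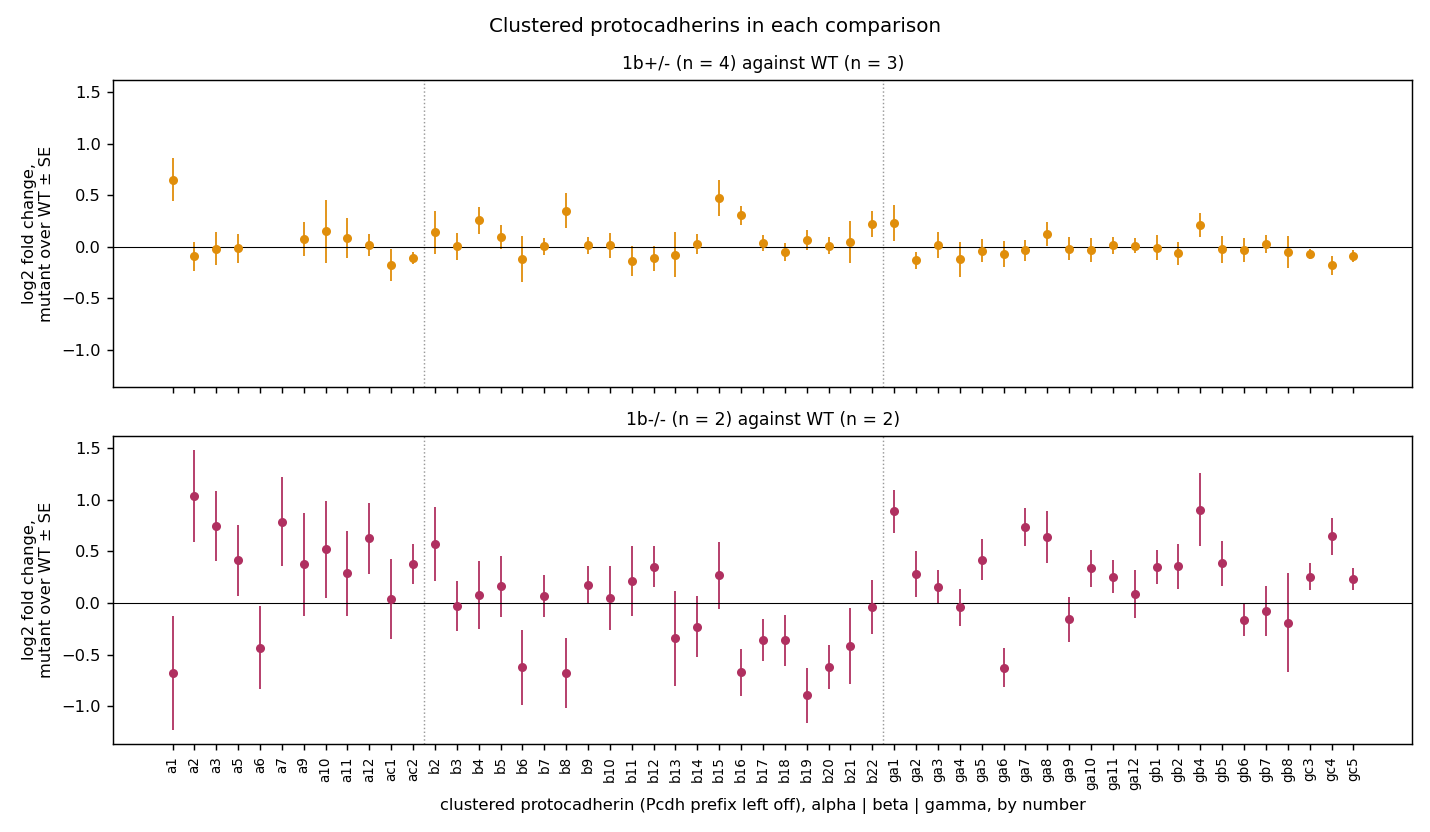
Log2 fold change, mutant over WT, with its SE, for each clustered protocadherin tested, in the order alpha, beta and gamma (dotted lines between arrays), in 1b+/- mice (top) and 1b-/- mice (bottom). None passed an adjusted p of 0.05. In 1b-/- mice the SEs are wider and more alpha and gamma points lie above 0 than below it.

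Among single clustered genes, Pcdhga1 was read at 4.69 and 4.63 CPM in WT and 9.17 and 8.14 CPM in 1b-/- mice (0.89, SE 0.21, adjusted p = 0.0809). Pcdhb19 was read at 9.48 and 8.19 CPM against 5.59 and 3.88 CPM (-0.90, SE 0.27, adjusted p = 0.118). Pcdha2 was read at 1.31 and 1.26 CPM against 3.35 and 1.94 CPM (1.04, SE 0.44, adjusted p = 0.214). None of these tests passed. Pcdhgc5, the highest clustered member, was read at 103 and 105 CPM in WT and at 122 CPM in both 1b-/- mice (0.23, SE 0.11, adjusted p = 0.242). Pcdhac2 stood at 28.4 ± 5.92 and 36.9 ± 4.63 CPM, and Pcdhb17 at 13.8 ± 0.999 and 10.8 ± 2.01 CPM.

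Leaving out mice changed the homozygous calls. Fewer members were called without WT replicate 1 or without WT replicate 2, fits that each keep 1 WT mouse against 2 mutants. Over 12 alternatives, the log2 fold change ran from 2.18 to 2.73 for Pcdh20, 1.75 to 2.42 for Pcdh8 and 1.26 to 1.56 for Pcdh1. It ran from -1.83 to -1.38 for Pcdh11x and from -2.86 to -1.82 for Cdh7. Each of these fits held at least 1 of the WT libraries with high striatal sums, whose part was not tested. With all 11 libraries in 1 fit, 34 of 88 members were called (38.6%), about the share of all genes (37.2%).

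Across both comparisons, which share no mice, 12 of the 86 members tested in both (14%) had an unadjusted p under 0.05 in each, against 4.06% of all genes. Of these, 8 were lower in both: Cdh4, Cdh7, Cdh13, Cdh22, Pcdh7, Pcdh10, Pcdh11x and Pcdh18. Among all 14151 genes tested in both, 172 (1.22%) were lower in both. Cdh1 (E-cadherin) and Cdh23 were higher in both, as were 0.827% of all genes, and Pcdh8 and Pcdhb16 went opposite ways, as did 2.01% of all genes. Cdh1, Cdh23, Pcdh7 and Pcdh18 are named here because they belong to these counts and were picked after their values were seen. The striatal list was also lower in value in the mutants of both rounds, as given above, and its part in the shared direction was not tested.

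**Figure D4:**
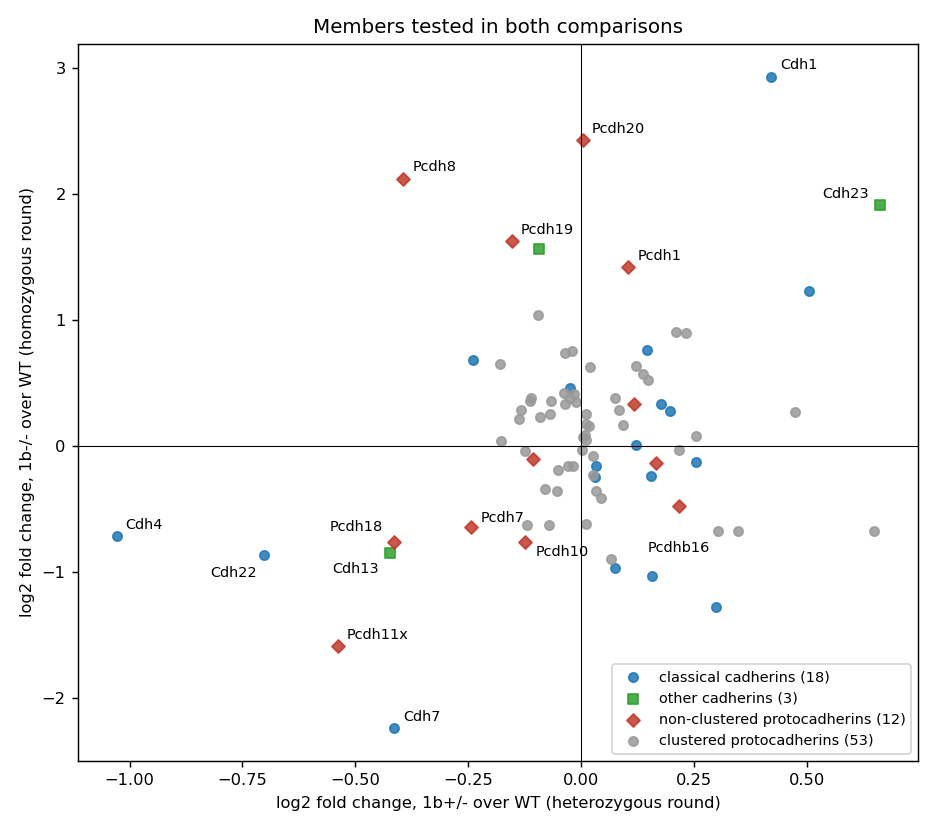
Log2 fold change in 1b+/- mice (horizontal) against that in 1b-/- mice (vertical) for the 86 members tested in both. The 8 members with an unadjusted p under 0.05 and lower values in both lie at lower left, and clustered protocadherins gather near 0 on the horizontal axis.

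Sizes differed within this group. For Cdh4 the change was -1.03 in 1b+/- and -0.71 in 1b-/- mice, and the test of the difference over all 11 libraries did not pass. Pcdh7, a delta1 gene, was read at 146 to 160 CPM against 120 to 140 CPM in the heterozygous round and at 101 and 141 against 80.4 and 74.6 CPM in the homozygous round. Pcdh18 was read at 7.99 to 9.78 against 5.55 to 8.30 CPM, with overlap, and then at 7.22 and 7.58 against 4.91 and 3.79 CPM. Cdh22 was read at 34.5 and 35.0 CPM in WT and at 22.2 and 15.9 CPM in 1b-/- mice. Cdh1 was low throughout, at 13 counts in both WT mice of the homozygous round together, so its fold is poorly fixed.

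The change in 1b-/- mice differed from that in 1b+/- mice for 23 of 88 members (26.1%), 11 with a more positive and 12 with a more negative value, against 27.3% of all genes, which is about the background. Pcdh8 differed by 2.50 on the log2 scale (SE 0.27, adjusted p = 0.000262), with a lower value in 1b+/- and a rise in 1b-/- mice. Pcdh20 differed by 2.41 (SE 0.20, adjusted p = 0.000103), Pcdh19 by 1.77 (SE 0.28, adjusted p = 0.00184) and Pcdh1 by 1.30 (SE 0.13, adjusted p = 0.000143). Among members lower in value in both, the change in 1b-/- minus that in 1b+/- mice was -1.83 for Cdh7, -1.05 for Pcdh11x and -0.64 for Pcdh10, each called.

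By the quasi-likelihood test at an adjusted p of 0.05, genes that work with cadherins were called about as often as all genes. Of 69 catenins, junction scaffold proteins, relatives in the cadherin superfamily, cleaving proteases, cytoplasmic partners and regulators of the protocadherin arrays tested in the heterozygous round, none was called (0% of all genes), and 9 (13%) had an unadjusted p under 0.05, against 11.3% of all genes. The likelihood ratio test called 1 and DESeq2 called 2 (1.31% and 1.67% of all genes). Beta-catenin (Ctnnb1) stood at 588 ± 6.37 CPM in WT and 531 ± 17.1 CPM in 1b+/- mice (-0.15, SE 0.04, adjusted p = 0.189). The nectin gene Pvrl1 stood at 90.3 ± 9.29 and 72.1 ± 5.37 CPM (adjusted p = 0.184). In the other lists, the member with the smallest p was Celsr2 (0.13, adjusted p = 0.261) among relatives, Ptk2 (0.10, adjusted p = 0.384) among cytoplasmic partners, Ncstn (0.04, adjusted p = 0.797) among proteases and Dnmt3b (0.76, adjusted p = 0.374) among regulators.

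In the homozygous round, 2 of 68 (2.94%) were called, against 3.58% of all genes, and 32 (47.1%) had an unadjusted p under 0.05, against 26.4%. Wasf1, a part of the WAVE complex that binds the tails of several protocadherins and drives actin branching, rose from 196 ± 16.4 to 479 ± 81.1 CPM (1.29, SE 0.17, adjusted p = 0.0310). Fat3, a giant cadherin that shapes dendrites, fell from 86.1 ± 2.56 to 50.1 ± 1.44 CPM (-0.78, SE 0.12, adjusted p = 0.0372). No catenin of 11, no protease of 10, no scaffold gene of 9 and no regulator of 13 was called, and 5, 5, 4 and 4 of them had an unadjusted p under 0.05. Alpha-catenin (Ctnna1), the link from beta-catenin to actin, stood at 146 ± 3.56 CPM in WT and 92.4 ± 17.8 CPM in 1b-/- mice (-0.66, SE 0.16, adjusted p = 0.0886). Dnmt3a, a DNA methyltransferase, stood at 123 ± 19.4 and 77 ± 1.67 CPM (adjusted p = 0.0721). The sheddase gene Adam17 stood at 30.3 ± 1.45 and 19.8 ± 0.20 CPM (adjusted p = 0.0732), and Pvrl1 at 32.4 ± 4.33 and 54.6 ± 6.02 CPM (adjusted p = 0.0674). Of the 13 regulators, 12 had lower values, with a median of -0.27, and of 13 relatives 10 had higher ones, with a median of 0.55. The likelihood ratio test called 18 of the 68 partners and DESeq2 called 19, larger shares than the 12.3% and 14.4% of all genes. With either WT mouse left out, which keeps 1 WT mouse, the quasi-likelihood test called fewer.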

How the data were processed

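RNA from hippocampus was sequenced as stranded poly(A) libraries. The authors aligned reads with STAR 2.7.2 to mm9 and deposited raw counts per gene from featureCounts, without normalization. The strand and overlap settings are not given in the sources used here, so overlapping genes and array variants are uncertain. Columns were matched to samples by name, because the labels name the 2 tables the other way round. Each library is a separate sample in the labels.

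Differential expression was tested with glmQLFit and glmQLFTest of edgeR 4.0.16 (R 4.3.3) after TMM scaling. A gene was kept if any library of its table had at least 1 CPM, genotype was the sole term, and p-values were adjusted by Benjamini-Hochberg over all genes kept, with a threshold of 0.05. The difference between comparisons was fitted on all 11 libraries. CPM was scaled by TMM inside each round unless said otherwise. An SE is the size of the log2 fold change over the root of its F statistic. The coefficient of variation between animals came to 9.13% (heterozygous) and 22.9% (homozygous). Exon lengths came from GENCODE on mm9, which had a protein-coding entry for 59 of the 95 symbols found in either table. The 27 symbols per table turned into dates by a spreadsheet were left out where tables were joined. The code was tested on simulated counts.

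The members, marker lists and partner lists were chosen with earlier results of these data known. Named genes are members with an adjusted p under 0.05, the highest member and the smallest p of each class, Cdh2, Cdh13, Pcdh19, Pcdh10 and Pcdhgc5, and the called or smallest-p member of each partner list. Others were named after their values were seen: Pcdh17 and Pcdh9 for their position, Pcdh7, Pcdh18, Cdh1 and Cdh23 for the shared counts, and Cdh19 for its adjusted p. Alternatives were the likelihood ratio test of edgeR, DESeq2 1.42.0, 2 other scalings (RLE, upper quartile), 2 other filters (filterByExpr, none), a term for sex, a joint fit of all libraries, and leaving out each library.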

Additional observations from a re-analysis of the deposited data

Results flagged for a closer look

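In 1b+/- replicate 3, Pcdha1 was at 1.49 CPM, apart from the 2.27 to 2.33 CPM of the other 3 mice. It was the only mouse that stood apart in this way in checks of 19 members, of which chance gives about 1 in 20.

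For 15 named members, the change in 1b-/- mice differed from that in 1b+/- mice by edgeR's quasi-likelihood test over all 11 libraries. Of the 88 members tested this way, 23 were called, which is about the background of 27.3% of all genes. The log2 fold change in 1b-/- minus that in 1b+/- mice was 2.50 for Pcdh8, 2.41 for Pcdh20, 1.77 for Pcdh19, 1.30 for Pcdh1, 1.13 for Pcdha2, 0.82 for Pcdhgc4, 0.48 for Cdh2 and 0.31 for Pcdhgc5. It was -1.83 for Cdh7, -1.33 for Pcdha1, -1.05 for Pcdh11x, -0.98 for Pcdhb16, -0.97 for Pcdhb19, -0.70 for Pcdh15 and -0.64 for Pcdh10. The WT libraries of the homozygous round, which carried high striatal sums, enter each of these values.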

How the results depend on the processing

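Of the counts of calls, those for members in the heterozygous comparison rose from 0 to 5 under the likelihood ratio test, 6 under DESeq2 and 2 with no filter on low counts, and ran from 0 to 8 when each library was left out (8 without WT replicate 1). Those in the homozygous comparison rose from 5 to 14, 17 and 9 under the same settings and to 34 with all 11 libraries in 1 fit, and ran from 0 to 7 with a library left out (0 without WT replicate 1, 2 without WT replicate 2). The count for the difference, 23, ran from 15 to 23 (15 without WT replicate 2 of the heterozygous round). For partners, the heterozygous count of 0 became 1 under the likelihood ratio test and 2 under DESeq2 and ran from 0 to 1, and the homozygous count of 2 became 18, 19, 8 with no filter and 39 in the joint fit, and ran from 0 to 3. These counts move with those over all genes, which went from 0 to 191, 245 and 44 genes in the heterozygous comparison and from 531 to 1829, 2144, 1029 and 5541 in the homozygous one. The cause was not tested, and a homozygous fit without 1 library keeps only 1 mouse in that library's group. RLE and upper-quartile factors, filterByExpr and a term for sex kept these counts within 1.5 times.

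Among family medians of the log2 fold change, classical cadherins ran from 0.0818 to 0.2094 (heterozygous) and from -0.2731 to 0.0046 (homozygous) with a library left out, and reached -0.2739 with a term for sex. Clustered protocadherins ran from -0.0570 to 0.0180 and from 0.1169 to 0.2356, and non-clustered ones from -0.3085 to -0.0516 (homozygous). The 3 other cadherins, too few for a stable median, ran from -0.3952 to 0.5931 (-0.3952 with sex) and from 0.8224 to 1.5911 (0.5316 with filterByExpr, 1.2212 with no filter and 1.1724 with sex).

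With a library left out, 4 log2 values that were never called changed sign. In the heterozygous comparison, Pcdhb17 ran from -0.0339 to 0.0996, and Pcdh20 from -0.0923 to 0.0772, with -0.0468 and -0.0036 without 1b+/- replicates 1 and 2. In the difference, Cdh11 ran from -0.0382 to 0.3426, and Cdh22 from -0.4474 to 0.0570. Over all alternatives, the other values of named members kept their direction, 811 on the same side of the threshold as in the main fit. A further 55 were called only in the alternative, and 49 only in the main fit. No paired analysis was possible because replicate numbers follow accession order and mark no shared animal or litter. Depth limits the low members: Cdh16, Cdh17, Pcdhb1, Pcdha4 and Pcdha8 stayed under 1 CPM in both tables.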
